A study of Mus musculus with 2 samples.

Results

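Solute carriers are membrane proteins that move amino acids, sugars, ions, metals, nucleosides and other small molecules across the plasma membrane and the membranes of organelles. Their RNA was examined in CD31- CD45- cells of mouse gonadal white adipose tissue (gWAT). A gene was taken as a member if its symbol had the form Slc, a family number, the letter a and a member number, and if it was chosen by its measured level, at least 20 CPM in the summed unique molecular identifiers (UMIs) of either library. CPM are counts scaled to a total of 1000000 per library or class. Of 334 such symbols in the count tables, 66 in 27 families reached this level, and 268 stayed under it. The limit was met in both libraries by 54 members, in the Tom+ library alone by 9 and in the Tom- library alone by 3. The level of a member over all kept cells is therefore what selected it and is described without a test, and a member that passed through 1 library alone could only lie on that side of the comparison.

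Both libraries came from 18-month-old male p16-CreERT2/R26-LSL-tdTomato mice that had received tamoxifen. In this genotype an inducible Cre recombinase is expressed from the p16 locus, and after tamoxifen it removes a stop cassette so that tdTomato marks cells that expressed p16, an inhibitor of the cell cycle whose level rises in senescent cells. Cells of the stromal vascular fraction (SVF) without the endothelial surface marker CD31 and the leukocyte marker CD45 were sorted into Tom+ and Tom- cells, and 1 droplet library was made from each. With 1 library per condition there was no replicate error and no test was possible, and the sort and the preparation of a library cannot be told apart. Neither the number of mice per library nor any pooling is given in the labels. Intervals are at 95%, from the exact Clopper-Pearson method, and they cover counting error only.

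As background, most carriers of the plasma membrane take up nutrients with the help of the sodium gradient or exchange 1 solute for another, and several work only with a partner protein. Slc3a2 is the heavy chain that brings amino acid exchangers such as Slc7a8 to the cell surface, and basigin (Bsg) does the same for the lactate carrier Slc16a1. The SLC25 family sits mainly in the inner mitochondrial membrane, the SLC39 family brings zinc and other divalent metals into the cytosol, and the SLC30 family moves zinc out of it. In gWAT the mesothelium is the flat epithelium-like layer on the surface of the fat pad, and the stromal cells beneath it include the adipocyte progenitor cells (APCs).

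The results turn on a few members. Slc39a8 and Slc16a1 were among the members with the largest mesothelial over stromal ratios. Slc7a8 stood at least 1.5-fold higher in the Tom+ library in both mesothelial and stromal cells. It had reached the 20 CPM limit in the Tom+ library alone, so this side follows in part from how members were chosen. Its mesothelial ratio rests on few UMIs, and its stromal call changed with the processing, as given below. The start regions of these 3 members are shown here. They are taken from RefSeq on GRCm38.p6 and run from 250 bases before to 50 bases after a transcript start. A start region was held for 50 of the 66 members, and Slc38a1 was not among them. The capitals mark any of 5 short motifs found on either strand. They are GGGCGG, the core of an Sp1 site, then CCAAT, the box bound by NF-Y, then TATAAA, bound by the TATA-binding protein, then CACGTG, an E-box, and then GGAATG, the core of a TEAD site, and none of these is contained in another. The Slc39a8 region lies at chr3:135825029-135825328 on the plus strand and is 1 of 2 starts listed for the gene. The Slc16a1 region lies at chr3:104638414-104638713 on the plus strand, and the Slc7a8 region at chr14:54781837-54782136 on the minus strand.
Slc39a8: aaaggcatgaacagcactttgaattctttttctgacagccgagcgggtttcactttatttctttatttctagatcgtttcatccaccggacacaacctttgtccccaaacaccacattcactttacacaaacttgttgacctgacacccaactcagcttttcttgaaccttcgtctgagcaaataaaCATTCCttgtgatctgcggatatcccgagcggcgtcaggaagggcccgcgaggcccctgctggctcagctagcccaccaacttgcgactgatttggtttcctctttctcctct
Slc16a1: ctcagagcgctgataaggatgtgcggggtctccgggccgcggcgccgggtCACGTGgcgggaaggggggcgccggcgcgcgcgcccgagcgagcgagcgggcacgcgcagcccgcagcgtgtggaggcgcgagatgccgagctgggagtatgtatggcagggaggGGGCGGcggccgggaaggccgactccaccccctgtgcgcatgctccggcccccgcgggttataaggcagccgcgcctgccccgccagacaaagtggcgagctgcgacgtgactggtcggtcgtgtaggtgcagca
Slc7a8: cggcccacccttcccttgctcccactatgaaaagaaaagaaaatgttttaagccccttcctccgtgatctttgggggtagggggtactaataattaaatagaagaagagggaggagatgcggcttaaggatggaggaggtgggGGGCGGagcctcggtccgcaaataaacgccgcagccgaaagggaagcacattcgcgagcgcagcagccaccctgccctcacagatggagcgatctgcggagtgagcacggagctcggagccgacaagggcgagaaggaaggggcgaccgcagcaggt
The GC content of these windows was 48% for Slc39a8, 73.7% for Slc16a1 and 58% for Slc7a8, against a median of 52.7% over 32851 start regions of the same length. The Slc39a8 window held 1 GGAATG match, on the reverse strand, the Slc16a1 window 1 GGGCGG and 1 CACGTG, and the Slc7a8 window 1 GGGCGG. Among all start regions, 35.7% held GGGCGG, 37.4% CCAAT, 13.6% TATAAA, 7.15% CACGTG and 14.7% GGAATG. A match is a description of the letters in the window, and nothing was measured at these sites.

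The deposited tables held 5566 Tom+ and 11838 Tom- barcodes with 61119807 and 96872394 UMIs, and 3524 Tom+ and 6717 Tom- cells had more than 1000 and fewer than 7000 genes and under 8% mitochondrial UMIs. Cells with at least 10 UMIs of Msln, Upk3b, Krt19, Lrrn4 and Upk1b together were taken as mesothelial (250 Tom+ and 1887 Tom- cells), those with under 5 as stromal (3263 and 4800), and 11 and 30 cells lay between. The median UMIs per cell were 18601.5 in Tom+ mesothelial, 14753 in Tom- mesothelial, 14235 in Tom+ stromal and 11270 in Tom- stromal cells. The libraries shared 2224 barcode sequences. Among the kept cells, 100 of the 250 Tom+ mesothelial cells (40%), 404 of the Tom+ stromal cells (12.4%), 207 of the Tom- mesothelial cells (11%) and 75 of the Tom- stromal cells (1.56%) carried a barcode that was also listed in the other library, and 9 barcodes were kept in both. Leaving out every cell that carries a shared barcode kept 150 Tom+ mesothelial cells, and values without such cells are given beside the leading results that rest on that class.

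The class names were checked against markers that the rule did not use. The 7 further mesothelial markers (Wt1, Muc16, Gpm6a, Krt8, Krt18, Krt7 and Bcam) summed to 2880 CPM in Tom+ and 3063 CPM in Tom- mesothelial cells, against 178.1 and 282.6 CPM in stromal cells, where Wt1 alone stood at 170.2 and 263.3 CPM. The 6 stromal markers (Pdgfra, Dpt, Col1a1, Col3a1, Dcn and Lum) summed to 29550 and 30350 CPM in stromal and to 13190 and 14840 CPM in mesothelial cells. The stromal class is defined by low mesothelial RNA alone and also held the plasma cell gene Jchain, at 1577 CPM in the Tom+ and 825.1 CPM in the Tom- library, so that fewer cells of a type and less RNA per cell cannot be told apart in its sums. At least 10 UMIs of Jchain, Ighm and Igkc together were held by 1649 of 3263 Tom+ and 127 of 4800 Tom- stromal cells. In mesothelial cells 162 of 250 Tom+ and 32 of 1887 Tom- cells held as many. The libraries thus differed in immunoglobulin RNA in both classes, and its part in the Tom+ over Tom- ratios was not tested. Adipocyte markers (Adipoq, Plin1 and Cidec) summed to at most 5.096 CPM and endothelial markers (Pecam1 and Cdh5) to at most 13.34 CPM in any of the 4 groups. The 3 mural markers (Rgs5, Myh11 and Notch3) summed to 65.55 and 37.68 CPM in Tom+ and Tom- stromal and to 7.515 and 3.74 CPM in mesothelial cells, the 4 immune markers (Ptprc, Cd68, Cd79a and Jchain) to 1632 and 852.3 CPM and to 61.06 and 28.28 CPM, and the epithelial markers Epcam and Cdh1 to 10.08 and 0.916 CPM and to 2.82 and 4.08 CPM. In mesothelial cells tdTomato RNA stood at 780.2 CPM (Tom+) against 8.252 CPM (Tom-), and in stromal cells at 210.8 against 13.10 CPM.

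The most abundant members included carriers of the mitochondrion, of amino acids and of nucleobases, and in mesothelial cells also the metal carrier Slc39a8 and the lactate carrier Slc16a1, which are described further on. CPM were summed from 3′ UMIs, which are not scaled by transcript length. Slc25a3, which brings phosphate into the mitochondrial matrix, led the mesothelial cells at 640.6 CPM in the Tom+ and 670.2 CPM in the Tom- library, and it stood at 457.2 and 505.2 CPM in stromal cells. Slc43a3, a carrier of purine nucleobases, led the stromal cells at 476.1 and 624.5 CPM, and stood at 218.9 and 224.6 CPM in mesothelial cells. Slc38a2, a sodium-coupled importer of small neutral amino acids, stood between 389.6 and 525.6 CPM in the 4 groups. The ADP/ATP carriers Slc25a4 and Slc25a5 ranged from 348.8 to 429.3 CPM and from 167.7 to 185.1 CPM, the second with the uncertainty that Slc25a5 has processed copies elsewhere in the genome. Slc3a2 ranged from 197.8 to 301.4 CPM, and the glutamine carrier Slc1a5 from 161.8 to 276.2 CPM. Together the 66 members made up 0.551% of UMIs in Tom+ mesothelial, 0.545% in Tom- mesothelial, 0.467% in Tom+ stromal and 0.498% in Tom- stromal cells.

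At the other end stood the members near the limit. Just inside it were Slc17a5, the sialic acid exporter of lysosomes, at 21.9 CPM in its higher library, the iron carrier Slc11a2 at 21.6 CPM, the anion exchanger Slc4a3 at 21.1 CPM, the zinc carrier Slc39a9 at 21.0 CPM, Slc38a6 at 20.2 CPM, the sulfate carrier Slc26a2 at 20.2 CPM and the amino acid carrier Slc43a1 at 20.1 CPM. Just outside were the zinc exporter Slc30a4 at 19.8 CPM, the proline carrier Slc6a7 at 19.7 CPM, the amino acid exchanger Slc7a6 at 19.2 CPM, the vitamin C carrier Slc23a2 at 18.9 CPM, the mitochondrial aspartate/glutamate carrier Slc25a12 at 18.8 CPM and the glucose carrier Slc2a8 at 18.7 CPM. Slc2a1, the glucose carrier found in most cell types, stood at 8.0 CPM in the Tom+ and 17.2 CPM in the Tom- library and is no member.

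The comparison of mesothelial with stromal cells asked how the carriers of the 2 cell populations of the sort differ, and it was made in each library on its own. In both libraries 6 members were at least 2-fold higher in mesothelial cells, namely Slc39a8, Slc38a1, Slc16a1, Slc25a25, Slc48a1 and Slc44a2. They are 9.09% of the members, beside 8.55% of the 6305 genes at 20 CPM or more. At least 2-fold lower in both libraries were 9 members, among them Slc29a1, Slc7a8, Slc16a9, Slc39a14, Slc41a3, Slc6a8, Slc38a6 and Slc43a3, which are 13.6% of the members beside 9.6% of those genes. The median log2 ratio of the members was -0.0099 in the Tom+ and 0.0298 in the Tom- library, against 0.0809 and 0.0844 over all those genes. A member low in one class could reach the 20 CPM limit through the other alone, as Slc39a8, Slc38a1 and Slc16a1 did, which stood under 20 CPM in stromal cells of both libraries, so these counts and medians describe the chosen members and support nothing further.

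**Figure D1:**
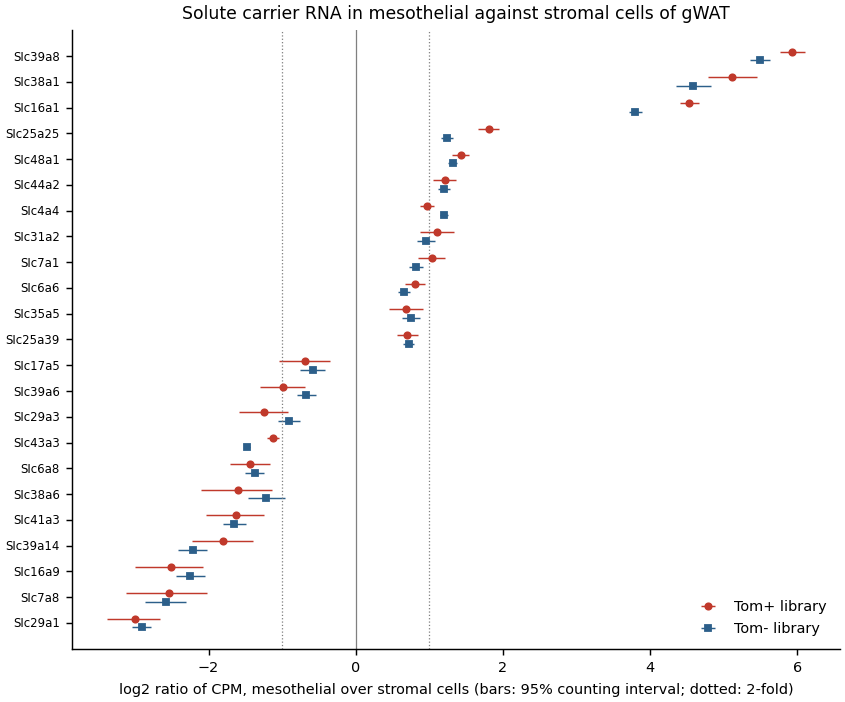
Each row is 1 of the solute carriers with the largest or smallest ratios, the horizontal axis is the log2 ratio of CPM in mesothelial over stromal cells, points are the Tom+ library (red circles) and the Tom- library (blue squares), bars are 95% counting intervals and dotted lines mark 2-fold. Slc39a8, Slc38a1 and Slc16a1 lie above 3.7 in both libraries, apart from the other members, and Slc29a1 lies lowest.

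The largest ratio was that of Slc39a8, a carrier that brings zinc and manganese into the cell (ENSMUSG00000053897, GRCm38 chromosome 3 from 135825279 to 135888572, plus strand). In mesothelial cells its RNA stood at 397.5 CPM in the Tom+ and at 383.6 CPM in the Tom- library, and in stromal cells at 6.52 and 8.52 CPM. With all kept cells the mesothelial levels of the libraries lay close together, and each was far above both stromal levels. Without cells of shared barcodes the mesothelial levels were 260.3 and 354.5 CPM, so their closeness depends on those cells. The log2 ratio was 5.93 (5.76 to 6.10) in the Tom+ and 5.49 (5.36 to 5.63) in the Tom- library, 61-fold and 45-fold, at percentiles 99.1 and 99.2 of all genes. Without cells of shared barcodes it was 5.26 and 5.36.

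Its close relative Slc39a14, which carries the same metals and also iron, had the opposite order (chromosome 14 from 70303469 to 70351425, minus strand). Slc39a14 stood at 9.58 and 7.20 CPM in Tom+ and Tom- mesothelial cells and at 33.3 and 33.4 CPM in stromal cells, log2 ratios of -1.80 (-2.23 to -1.40) and -2.21 (-2.41 to -2.02). The first was -2.00 without cells of shared barcodes. The other SLC39 members stayed within 2-fold in both libraries. Slc39a6, another zinc importer, came nearest with log2 ratios of -0.99 and -0.67, while Slc39a1, Slc39a7, Slc39a9 and Slc39a13 lay between -0.26 and 0.19. Slc48a1, which moves heme out of endosomes and lysosomes, stood at 137.0 and 140.3 CPM in mesothelial and at 50.9 and 56.4 CPM in stromal cells, 2.69-fold and 2.49-fold, with a Tom+ log2 ratio of 1.43, or 1.32 without cells of shared barcodes. Slc41a3, a magnesium carrier of mitochondria, stood at 10.7 and 12.2 CPM against 33 and 38.4 CPM, 3.08-fold and 3.14-fold lower, and its Tom+ log2 ratio of -1.62 was -2.10 without those cells.

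The monocarboxylate family SLC16 was divided in the same way. Slc16a1, the carrier of lactate, pyruvate and ketone bodies (chromosome 3 from 104638668 to 104658462, plus strand), had 304.3 CPM in mesothelial cells of the Tom+ library, 271.9 CPM in those of the Tom- library, and 13.1 and 19.6 CPM in stromal cells. The log2 ratios were 4.53 (4.40 to 4.67) and 3.8 (3.71 to 3.89), or 23.2-fold and 13.9-fold, and 4.21 and 3.75 without cells of shared barcodes. Slc16a9, a carrier of carnitine, stood at 7.70 and 7.42 CPM in mesothelial and at 44 and 35.2 CPM in stromal cells. Its log2 ratios were -2.52 (-3.00 to -2.07) and -2.25 (-2.45 to -2.05). Without mesothelial cells that held 3 or more UMIs of the stromal genes Pdgfra and Dpt, the Tom+ ratio of Slc16a9 was -3.51, and without cells of shared barcodes it was -3.00. Bsg, the partner of Slc16a1 and outside the symbol rule, stood at 959.4 and 1022 CPM in mesothelial and at 410.8 and 506.7 CPM in stromal cells.

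Among the sodium-coupled neutral amino acid carriers of the SLC38 family, Slc38a1, an importer of glutamine, stood mainly in mesothelial cells (chromosome 15 from 96571418 to 96642913, minus strand). It stood at 66.3 CPM from 353 UMIs in Tom+ and at 63.0 CPM from 2039 UMIs in Tom- mesothelial cells. In stromal cells it stood at 1.92 CPM from 98 UMIs and 2.63 CPM from 152 UMIs, which gives log2 ratios of 5.11 (4.79 to 5.45) and 4.58 (4.35 to 4.83). Without cells of shared barcodes these were 5.93 and 4.88, and with stromal cells limited to those with at least 3 Pdgfra and Dpt UMIs and under 3 Jchain UMIs, an alternative added with the data in view, they were 6.78 and 5.68. Slc38a2, whose gene is the neighbour of Slc38a1 on chromosome 15, differed little, with log2 ratios of 0.43 and 0.14. Slc38a6, a less described member of the family, stood at 7.14 and 5.07 CPM in mesothelial and at 21.6 and 11.8 CPM in stromal cells, with log2 ratios of -1.60 and -1.21.

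**Figure D2:**
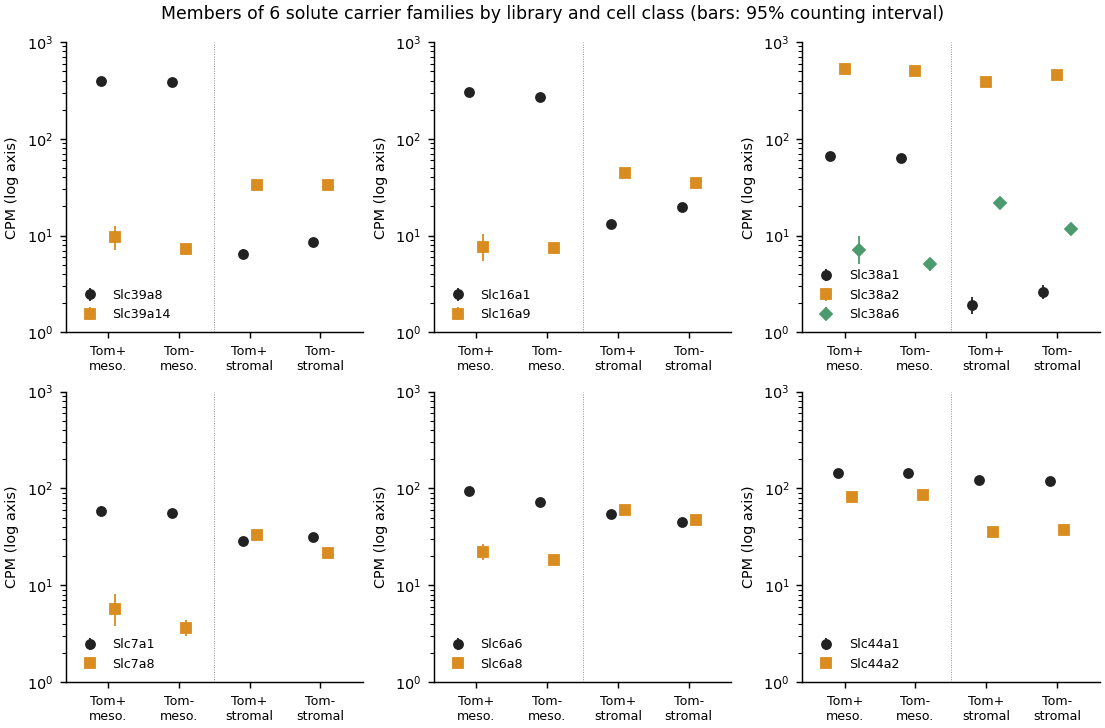
CPM on a log axis of members of 6 solute carrier families in Tom+ and Tom- mesothelial and Tom+ and Tom- stromal cells, with 1 marker per gene and bars for 95% counting intervals. Slc39a8, Slc16a1 and Slc38a1 are higher in mesothelial cells, while Slc39a14, Slc16a9, Slc7a8 and Slc6a8 are higher in stromal cells.

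Among other amino acid carriers, relatives within the SLC7 and SLC6 families also lay on opposite sides. Slc7a8, which swaps large and small neutral amino acids with the help of Slc3a2 (chromosome 14 from 54722209 to 54781946, minus strand), stood at 5.64 CPM from 30 UMIs and 3.62 CPM from 117 UMIs in mesothelial cells and at 32.9 and 21.6 CPM in stromal cells. Its log2 ratios were -2.54 (-3.12 to -2.02) and -2.58 (-2.87 to -2.31), the first -2.38 without cells of shared barcodes. Slc7a1, the main carrier of arginine and lysine, was at 58.2 and 56.0 CPM against 28.4 and 31.7 CPM, 2.05-fold in the Tom+ and 1.77-fold in the Tom- library. The taurine carrier Slc6a6 stood at 93.9 and 71.5 CPM in mesothelial against 53.8 and 45.4 CPM in stromal cells, and the creatine carrier Slc6a8 at 22 and 18.3 CPM against 59.4 and 47.5 CPM. Those of Slc6a6 were 1.75-fold and 1.57-fold higher and those of Slc6a8 2.70-fold and 2.59-fold lower. The Tom+ log2 ratio of Slc6a8 was -2.19 in place of -1.43 without cells of shared barcodes. Of the 13 members grouped with amino acids, which include Slc43a3 by its family, 1 was called higher and 4 lower in mesothelial cells, beside the 8.55% and 9.6% of all genes given above.

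Nucleoside and nucleobase carriers were on the stromal side. Slc29a1, which lets adenosine and other nucleosides equilibrate across the plasma membrane (chromosome 17 from 45585200 to 45599606, minus strand), stood at 12.6 and 16.9 CPM in mesothelial and at 101.1 and 127.2 CPM in stromal cells. The log2 ratios of -3.01 (-3.38 to -2.66) and -2.91 (-3.04 to -2.78) were the lowest of all members in both libraries, and the first was -3.08 without cells of shared barcodes. Slc29a3, its relative of the lysosome, had 15.4 and 15 CPM against 36.5 and 27.9 CPM, 2.37-fold lower in the Tom+ and 1.87-fold lower in the Tom- library. Slc43a3 was 2.17-fold and 2.78-fold lower.

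Of the 14 members of the SLC25 family, 1 was called higher and 0 lower, beside 8.55% and 9.6% of all genes. That gene was Slc25a25, which exchanges ATP-magnesium for phosphate across the inner mitochondrial membrane, with 106.7 and 92.3 CPM in mesothelial against 30.5 and 39.1 CPM in stromal cells, 3.5-fold and 2.36-fold, and the Tom+ log2 ratio of 1.81 was 1.73 without cells of shared barcodes. The glutathione carrier Slc25a39 stood at 83.6 and 82.7 CPM against 51.4 and 50.3 CPM. Of the 2 choline carriers, Slc44a2 stood at 81.5 and 84.7 CPM against 35.3 and 36.8 CPM, 2.31-fold and 2.30-fold, while Slc44a1 stood at 143.2 and 143.5 CPM against 123.2 and 119.0 CPM. The Tom+ log2 ratio of Slc44a2 fell below the 2-fold limit without cells of shared barcodes, at 0.86 in place of 1.21. Among 8 carriers of inorganic ions none was called in either direction, beside the same shares of all genes. With so few genes this is no result about the group. The sodium bicarbonate cotransporter Slc4a4 was closest, at 214.2 and 171.5 CPM against 109.4 and 74.6 CPM. The 4 nucleotide sugar carriers of the Golgi (Slc35a1, Slc35a2, Slc35a4 and Slc35a5) lay between 0.066 and 0.75 on the log2 scale, with Slc35a5 highest at 34 CPM in mesothelial cells of both libraries against 21.1 and 20.2 CPM in stromal cells. Slc31a2, which moves copper between compartments, stood at 35.5 and 36.5 CPM against 16.4 and 18.8 CPM, and Slc17a5 stood on the stromal side with 14.1 and 12.6 CPM against 22.7 and 19 CPM.

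The low levels on either side were set beside markers measured the same way. The 6 mesothelial markers outside the rule other than Wt1 stood in stromal cells at 0.110% to 0.704% of their mesothelial level in the Tom+ and at 0.545% to 1.15% in the Tom- library. For Slc39a8 this share was 1.64% and 2.22%, for Slc38a1 2.89% and 4.17% and for Slc16a1 4.31% and 7.19%. Each lay above the range of the markers. These shares are over the whole stromal class. With stromal cells limited by Pdgfra, Dpt and Jchain, the mesothelial over stromal ratios of Slc38a1 were larger, as given above. Its share was therefore smaller in those cells. In the other direction, the 6 stromal markers stood in mesothelial cells at 3.87% (Lum) to 54% (Dcn) of their stromal level in the Tom+ and at 7.24% (Dpt) to 66.1% (Col3a1) in the Tom- library, with Pdgfra at 12.2% and 18.2%, Col1a1 at 30% and 40.6%. Slc29a1 stood at 12.5% and 13.3%, Slc7a8 at 17.2% and 16.7%, Slc16a9 at 17.5% and 21.1% and Slc39a14 at 28.8% and 21.6%, each within the range of these markers. Without mesothelial cells that held 3 or more Pdgfra and Dpt UMIs, which were 44 Tom+ and 283 Tom- cells, the Tom- log2 ratio was -3.52 for Slc29a1 and -3.34 for Slc7a8. The part of free RNA and of mixed droplets in these levels was not tested.

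Shares of cells with a UMI gave the same order. Each cell was thinned to 5000 UMIs, which left out 0 Tom+ and 31 Tom- mesothelial cells and 119 Tom+ and 253 Tom- stromal cells that were shallower. Slc39a8 was found in 66.8% (60.6 to 72.6) of Tom+ and 63.4% (61.1 to 65.6) of Tom- mesothelial cells and in 3.18% (2.60 to 3.86) and 4.77% (4.17 to 5.43) of stromal cells. Slc16a1 was found in 69.6% and 67.4% of mesothelial and in 6.17% and 8.40% of stromal cells. For the mesothelial marker Msln, which stromal cells should lack, the shares were 88.0% and 91.9% of mesothelial and 0.541% and 2.05% of stromal cells. Slc29a1 was found in 38.1% and 44.1% of stromal cells and in 5.6% and 8.24% of mesothelial cells. Without thinning, the Slc39a8 shares were 84.4% and 84.2% of mesothelial and 8.58% and 9.46% of stromal cells.

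The comparison of the libraries asked how Tom+ cells differ from Tom- cells. Over all kept cells, 4 members stood at least 1.5-fold lower in the Tom+ library (Slc39a8, Slc38a1, Slc16a1 and Slc25a25) and 5 at least 1.5-fold higher (among them Slc38a6, Slc7a8, Slc16a9 and Slc6a8). They are 6.06% and 7.58% of the members, and 7.64% and 5.09% of all genes were lower and higher by as much, which is given as a description because these levels chose the members. Those 4 are among the 6 that were higher in mesothelial cells. Mesothelial cells gave 9.43% of the UMIs of both classes among Tom+ cells, against 35.9% among Tom- cells. Slc39a8 stood at 43.5 CPM over all Tom+ and 142.9 CPM over all Tom- cells, for a log2 ratio of -1.72. The mix of the classes alone, with each class held at its Tom- level in both libraries, gives -1.70. For Slc38a1 the values were -1.60 observed and -1.54 from the mix, and for Slc16a1 -1.43 and -1.34. All ratios from the mix were computed with cells of shared barcodes kept, which were 40% of Tom+ mesothelial cells. They were not recomputed without those cells. Leaving such cells out gave Slc39a8 a log2 ratio of -0.45 between the mesothelial classes of the libraries. Whether observed ratios and ratios from the mix would then lie as close is therefore not known. Other members lay further from the mix. Slc25a25 had -0.63 observed and -0.40 from the mix. Of the higher members, Slc38a6 had 1.12 observed and 0.25 from the mix, and Slc7a8 had 1.003 and 0.394. Slc16a9 had 0.68 and 0.37, and Slc6a8 had 0.59 and 0.27. For these 5 members the ratio from the mix stayed under 1.5-fold. When both libraries were given the mix of the Tom- library, 0 members were 1.5-fold lower and 2 were 1.5-fold higher. The share of all genes was not computed for that mix, so these counts are no result about the members. Across the 66 members the observed ratio and the ratio from the mix had a Pearson r of 0.84, given as a description, since both are computed from the same 2 libraries. Slc39a8, Slc38a1 and Slc16a1 lay far below the other members on both ratios. The r without them was not computed, so it does not describe the remaining members.

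**Figure D3:**
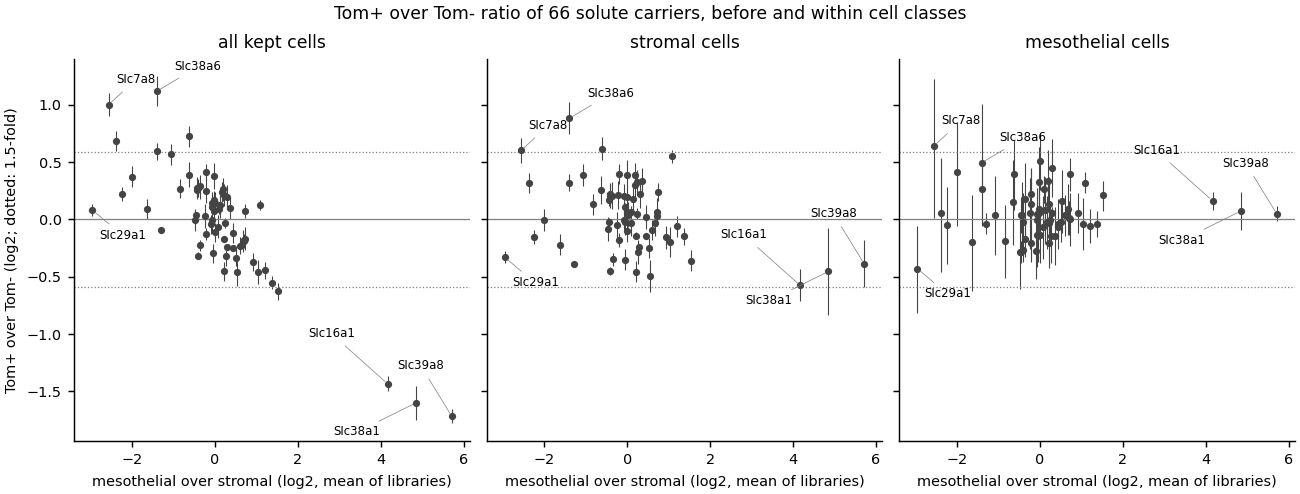
Each point is 1 of the 66 solute carriers, with its log2 ratio of mesothelial over stromal cells (mean of the libraries) on the horizontal axis and its log2 ratio of Tom+ over Tom- on the vertical axis, in all kept cells, in stromal cells and in mesothelial cells. Bars are 95% counting intervals and dotted lines mark 1.5-fold. Slc39a8, Slc38a1 and Slc16a1 lie at -1.43 or lower over all cells and at 0.05 to 0.16 within mesothelial cells, where Slc39a8 is at -0.45 and Slc16a1 at -0.02 without cells of shared barcodes.

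Within mesothelial cells the members ranged from -0.43 to 0.64 on the log2 scale, with a median of 0.037 against 0.021 for all genes. At least 1.5-fold higher in Tom+ mesothelial cells was 1 member, Slc7a8, beside 0.856% of all genes, and 0 members were 1.5-fold lower beside 1.49%. The log2 ratio of Slc7a8, 0.64 (0.01 to 1.23), rests on 30 Tom+ UMIs. It was 0.99 (0.09 to 1.79), from 15 Tom+ UMIs, without cells of shared barcodes. Slc7a8 had reached the 20 CPM limit in the Tom+ library alone, so its side here follows in part from how members were chosen. Slc39a8 had a ratio of 0.05 (-0.02 to 0.12), Slc38a1 of 0.07 (-0.09 to 0.24) and Slc16a1 of 0.16 (0.09 to 0.24). Without cells of shared barcodes these were -0.45 (-0.57 to -0.32), 0.22 (-0.03 to 0.45) and -0.02 (-0.15 to 0.10), with Slc39a8 at 260.3 and 354.5 CPM, so the likeness of the libraries in Slc39a8 and the sign of Slc16a1 depend on those cells. Some markers of other cells also differed between the mesothelial classes. The leukocyte gene Ptprc stood at 6.39 CPM in the Tom+ and 0.494 CPM in the Tom- library, the macrophage gene Cd68 at 34.6 and 9.24 CPM and the pericyte gene Rgs5 at 3.76 and 0.278 CPM. Their whole lists summed to 61.06 and 28.28 CPM (immune) and to 7.515 and 3.74 CPM (mural). Without cells of shared barcodes Ptprc stood at 3.61 and 0.516 CPM and Cd68 at 15.3 and 9.20 CPM. Rgs5 then had 0 UMIs in the Tom+ and 5 in the Tom- library, so its order depends on those cells. The part of these genes in the members' ratios was not tested.

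Of the 66 members, 12 had a counting interval above 0 and 7 one below 0 in this comparison, which is 18.2% and 10.6% beside 17.5% and 14% of all genes. With cells of shared barcodes left out, 9 and 5 did. The share of all genes was not computed for that setting. Fewer cells widen the counting intervals, so the smaller counts are no result about the members. The taurine carrier Slc6a6 stood at 93.9 and 71.5 CPM, a log2 ratio of 0.39 (0.25 to 0.53). Without cells of shared barcodes it was 0.19 (-0.04 to 0.42), an interval that includes 0. Slc25a30, a mitochondrial carrier, stood at 31 and 21.8 CPM, a ratio of 0.51 (0.25 to 0.75). Without those cells it was 0.34 (-0.06 to 0.72), an interval that also includes 0. The bicarbonate carrier Slc4a4 stood at 214.2 and 171.5 CPM, a ratio of 0.32 (0.23 to 0.41), and 0.18 (0.03 to 0.32) without them. Slc3a2 stood at 197.8 and 240.9 CPM and Slc1a5 at 161.8 and 194.7 CPM, ratios of -0.28 (-0.38 to -0.19) and -0.27 (-0.37 to -0.16). Without cells of shared barcodes these were -0.17 (-0.31 to -0.04) and -0.32 (-0.48 to -0.16). Of zinc carriers, Slc39a1 had a ratio of 0.27, Slc39a7 of -0.21 and Slc30a5 of -0.27, and the Golgi carrier Slc35a4 had 0.34. With those cells left out, they were 0.31 (0.13 to 0.48), -0.10 (-0.34 to 0.13), -0.26 (-0.64 to 0.10) and 0.48 (0.08 to 0.86). The intervals of Slc39a7 and Slc30a5 then include 0. Slc35a4 had reached the 20 CPM limit in the Tom+ library alone, so its side follows in part from how members were chosen. Slc10a6, a carrier of sulfated steroids, and Slc50a1, a sugar carrier, had -0.21 and -0.17. Without those cells they had -0.20 (-0.52 to 0.10) and -0.16 (-0.39 to 0.06), and both intervals include 0.

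Within stromal cells the members ranged from -0.57 to 0.88 with a median of 0.011, against 0.035 for all genes. At least 1.5-fold higher in Tom+ stromal cells were 3 members, among them Slc38a6 and Slc7a8, which are 4.55% of the members beside 2.65% of all genes, and 0 members were 1.5-fold lower beside 4.47%. Slc38a6 and Slc7a8 had reached the 20 CPM limit in the Tom+ library alone, so their side of this comparison follows in part from how members were chosen. Size factors by the median of ratios moved the median of all genes from 0.035 to -0.036, and then 1 member was called higher (Slc38a6) and 1 lower (Slc16a1). With mitochondrial UMIs held under 5%, Slc7a8 was not called and Slc16a1 was called lower. The share of all genes was not computed under either setting.

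The stromal level of Slc38a6 was 21.6 CPM among Tom+ and 11.8 CPM among Tom- cells, a log2 ratio of 0.88 (0.74 to 1.02). Slc7a8 stood at 32.9 and 21.6 CPM, a ratio of 0.60 (0.50 to 0.71). Next in order came Slc4a4, at 109.4 and 74.6 CPM with a ratio of 0.55 (0.49 to 0.61). Slc25a51, which brings NAD+ into mitochondria, stood at 46.8 and 35.6 CPM, and the anion exchanger Slc4a2 at 34.2 and 26.1 CPM, each with a ratio of 0.39. Slc29a3 had a ratio of 0.38, Slc27a1, a fatty acid transport protein, one of 0.33 and Slc25a1, the citrate carrier of mitochondria, one of 0.33.

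On the lower side Slc1a5 had 202.3 CPM among Tom+ and 276.2 CPM among Tom- stromal cells, a log2 ratio of -0.45 (-0.48 to -0.41). Slc43a3 stood at 476.1 and 624.5 CPM, -0.39 (-0.42 to -0.37), and Slc29a1 at 101.1 and 127.2 CPM, -0.33 (-0.38 to -0.28). Slc10a6 stood at 31.4 and 43.1 CPM, -0.46 (-0.55 to -0.36), and Slc50a1 at 93.7 and 119.2 CPM, -0.35 (-0.40 to -0.29). Slc25a25 had -0.36, Slc25a17, a carrier of peroxisomes, -0.35 and Slc35a1, which brings CMP-sialic acid into the Golgi, -0.28. All of these stayed under 1.5-fold. The lowest stromal ratio was that of Slc16a1, at 13.1 and 19.6 CPM, -0.57 (-0.71 to -0.44). Slc39a8 had -0.39 and Slc38a1 -0.45 there, and beside them the 5 marker genes of the mesothelial rule summed to 6.63 CPM in Tom+ and 27.4 CPM in Tom- stromal cells, so that mesothelial RNA in the stromal class also differed between the libraries. Its part in these 3 ratios was not tested. Slc38a1 had reached the 20 CPM limit in the Tom- library alone, so its side follows in part from how members were chosen.

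Among the non-members just under the limit, Slc6a7, the proline carrier, stood apart in this comparison. It had 21.7 CPM in Tom+ and 4.75 CPM in Tom- stromal cells, a log2 ratio of 2.19 (2.0 to 2.39), larger than that of any member. Over all kept cells Slc6a7 stood at 19.69 CPM in the Tom+ and 3.163 CPM in the Tom- library. Its Tom+ level alone placed it near the limit, so its side here follows in part from that choice. Slc2a1 had 7.75 and 16.7 CPM there, a ratio of -1.11 (-1.28 to -0.94).

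To show how the members vary among stromal cells, 2 ranges were cut on marker UMIs. Fabp4-rich cells had at least 20 Fabp4 UMIs and under 3 Pi16 and Dpp4 UMIs (865 Tom+ and 852 Tom- cells), and Pi16/Dpp4-rich cells had at least 10 Pi16 and Dpp4 UMIs and under 5 Fabp4 UMIs (235 and 416 cells). Fabp4 encodes a fatty acid binding protein that rises as APCs commit to the adipocyte lineage, and Pi16 and Dpp4 mark early progenitors of the reticular interstitium. The ranges are no cell types, and Fabp4-rich cells also held more of other RNA, with Jchain at 711.2 CPM against 52.1 CPM in the Tom+ and 305.5 against 14.1 CPM in the Tom- library, and Myh11, a contractile gene of mural cells, at 62.4 against 1.72 CPM and 56.0 against 0.880 CPM. In both libraries 8 members were at least 1.5-fold higher in Fabp4-rich cells, 12.1% of the members beside 8.36% of all genes, and 7 were at least 1.5-fold lower, 10.6% beside 7.63%. The median log2 ratio of the members was 0.13 in the Tom+ and 0.061 in the Tom- library, against 0.026 and 0.030 for all genes.

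Slc27a1 had the largest ratio in the Tom+ library and came just after Slc7a8 in the Tom- library, with 33.3 CPM in Fabp4-rich against 5.72 CPM in Pi16/Dpp4-rich cells of the Tom+ library and 28.1 against 5.46 CPM in the Tom- library. The log2 ratios were 2.54 (1.90 to 3.26) and 2.37 (1.83 to 2.95). Slc7a8 stood at 39.8 against 10.0 CPM and 35.9 against 6.86 CPM, with ratios of 1.99 (1.5 to 2.52) and 2.38 (1.91 to 2.90). In each library both genes were several-fold higher in the Fabp4-rich cells, and the intervals of the libraries overlapped. Slc29a3 had ratios of 0.98 and 1.07, Slc44a2 of 1.13 and 0.82, Slc25a5 of 0.94 and 0.82, and the copper importer Slc31a1 of 0.99 and 0.60. Slc38a1 was counted among the 8, but at 21 UMIs against 1 and 21 against 3 its intervals of -0.42 to 7.59 and 0.00 to 4.13 reach 0.

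**Figure D4:**
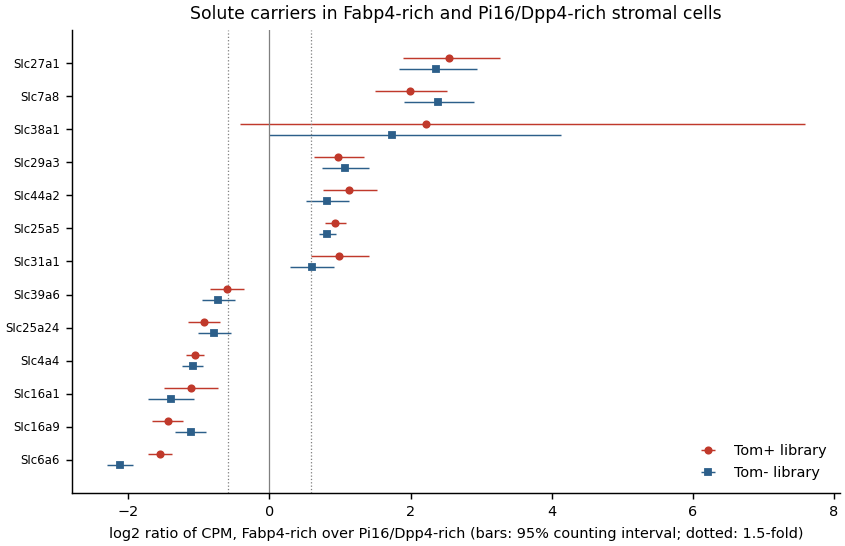
Each row is 1 of the solute carriers with the largest or smallest ratios and the horizontal axis is the log2 ratio of CPM in Fabp4-rich over Pi16/Dpp4-rich stromal cells, for the Tom+ library (red circles) and the Tom- library (blue squares), with 95% counting intervals and dotted lines at 1.5-fold. Slc27a1 and Slc7a8 lie above 1.9 in both libraries, Slc38a1 has the widest intervals, and Slc6a6 lies lowest.

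The Pi16/Dpp4-rich cells held more of the taurine carrier Slc6a6, at 139 CPM against 47.3 CPM in Fabp4-rich cells of the Tom+ library and 130 against 30.1 CPM in the Tom- library, log2 ratios of -1.56 (-1.72 to -1.39) and -2.11 (-2.30 to -1.93). Slc16a9 stood at 81.8 against 30.1 CPM and 65.5 against 30.1 CPM, and Slc4a4 at 203 against 97.8 CPM and 131 against 61.8 CPM. Slc16a1, low in stromal cells as a whole, was at 24.6 against 11.4 CPM and 31.1 against 11.9 CPM, ratios of -1.11 and -1.39. The phosphate exchanger Slc25a24 had ratios of -0.93 and -0.78 and Slc39a6 of -0.60 and -0.73.

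The Tom+ over Tom- ratios were then read within these ranges, since 26.5% of Tom+ and 17.8% of Tom- stromal cells were Fabp4-rich. The ranges were cut on UMIs without thinning, and median stromal depth was 14235 UMIs in the Tom+ and 11270 in the Tom- library. These shares are therefore not corrected for depth. The ratio of Slc7a8, 0.60 over all stromal cells, was 0.15 (-0.03 to 0.33) within Fabp4-rich and 0.55 (-0.16 to 1.24) within Pi16/Dpp4-rich cells, and both intervals include 0. These ratios were 0.30 and 0.28 without cells of shared barcodes. Intervals were not computed for that setting, so whether they would include 0 is not known. That of Slc38a6 was 0.68 (0.42 to 0.94) and 0.68 (0.16 to 1.20) and that of Slc4a4 0.66 (0.54 to 0.79) and 0.63 (0.48 to 0.78). For both genes the intervals lay above 0 within each range. Slc38a6, like Slc7a8, had reached the 20 CPM limit in the Tom+ library alone. Its side within the ranges therefore follows in part from how members were chosen. Slc6a6, at 0.24 over all stromal cells, had 0.65 (0.47 to 0.84) within Fabp4-rich and 0.09 (-0.08 to 0.26) within Pi16/Dpp4-rich cells. Slc1a5 had -0.64 (-0.70 to -0.57) and -0.19 (-0.34 to -0.05), and Slc43a3 -0.44 (-0.49 to -0.39) and -0.03 (-0.11 to 0.05). The share of cells with a shared barcode was 18.4% in Tom+ and 1.17% in Tom- Fabp4-rich cells and 6.81% and 0.240% in Pi16/Dpp4-rich cells.

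Carriers and partners outside the symbol rule were read from a list of 32 genes. Of these, 23 stood at 20 CPM or more in either library. In both libraries 5 of them were at least 2-fold higher in mesothelial cells (among them Bsg, Atp1b1, Slc9a3r1 and Ucp2) and 2 were lower (among them Slco2b1), beside 8.55% and 9.6% of all genes. Atp1b1, a beta subunit of the sodium pump, which sets up the gradient that sodium-coupled carriers use, stood at 340.4 and 389.1 CPM in mesothelial against 31.6 and 27.2 CPM in stromal cells. Slc9a3r1, a scaffold protein that holds transporters at the apical membrane, stood at 497.7 and 564.0 CPM against 20.3 and 28.8 CPM. In stromal cells 1 of the 23, the prostaglandin carrier Slco2a1, was 1.5-fold higher in the Tom+ library (82.7 against 47.8 CPM) and 2 were lower, Emb, a partner of monocarboxylate carriers (11.4 against 30.6 CPM), and Fxyd5, a regulator of the sodium pump (54.9 against 116.4 CPM), beside 2.65% and 4.47% of all genes. Over all kept cells Emb stood at 10.96 CPM in the Tom+ and 23.06 CPM in the Tom- library. It met the 20 CPM limit in the Tom- library alone, so its side follows in part from that limit. In mesothelial cells Slco2b1 was 1.5-fold higher and 0 were lower, beside 0.856% and 1.49%. Between the stromal ranges, 6 were higher and 4 lower in Fabp4-rich cells of both libraries, beside 8.36% and 7.63%. The 23 genes were picked as partners and relatives of carriers, and no test compares them with other genes.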

How the data were processed

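Gonadal adipose cells of p16-CreERT2/R26-LSL-tdTomato mice were sorted and loaded on a 10x Genomics 3′ kit. The authors deposited whole-number UMI counts per gene and barcode, without normalization, together with lists of genes and barcodes, per the file headers. The submitters' processing notes name Cell Ranger 3.0.2 and mm10. No doublet caller was run and free RNA was not removed. Kept cells had over 1000 but under 7000 genes, and mitochondrial UMIs under 8%. Counts were summed per library and class and scaled to CPM. Ratios carry 95% Clopper-Pearson intervals, which cover counting error only. Lists, members and limits were chosen with earlier results of these data known. Genes named with values were the 12 largest and 12 smallest mesothelial over stromal ratios, the 8 and 8 and the 6 and 6 largest and smallest Tom+ over Tom- ratios of stromal and mesothelial cells at a mean of 20 CPM, the 8 and 8 between stromal ranges, the 10 highest levels per class and those within 2 CPM of the limit. Slc38a6 in the stromal library comparison, Slc2a1, Slc6a7 there, and relatives set beside a named gene were singled out after their values were seen. No column was left unused. The values of a few members and markers are not reported here. Positions are from the GENCODE annotation of GRCm38, and 2 of 66 members overlap another gene on the same strand (among them Slc5a3, with Mrps6 and AC144408.3). Ratios and intervals were run on simulated counts that held counting error only, which is the error the intervals assume. That run cannot show how cells or libraries vary. The cells were processed with Python 3.11.15, numpy 2.4.6, pandas 2.3.3 and scipy 1.17.1. Alternatives changed the scaling, the filters, the class limits, the member limit and the treatment of shared barcodes.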

Additional observations from a re-analysis of the deposited data

Results flagged for a closer look

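For 2 members the Tom+ over Tom- ratio had opposite signs in mesothelial and stromal cells, with counting intervals on either side of 0. The log2 ratio of Slc16a1, the lactate carrier, was 0.16 in mesothelial and -0.57 in stromal cells. That of Slc25a25, the ATP-magnesium/phosphate carrier, was 0.21 in mesothelial and -0.36 in stromal cells. Without cells of shared barcodes the mesothelial ratio of Slc16a1 was -0.02 (-0.15 to 0.10), so that its signs were no longer opposite, and that of Slc25a25 was 0.24 (0.04 to 0.43). The difference between the classes was not tested, since each class has 1 library per condition.

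A further 5 solute carriers stayed under 20 CPM over all cells of both libraries but reached that level in the mesothelial cells of both. Slc12a2, the sodium-potassium-chloride cotransporter, had 23.86 CPM among Tom+ and 22.35 CPM among Tom- mesothelial cells. Slc16a4, of the monocarboxylate family, stood at 21.42 and 31.03 CPM. Slc25a23, a relative of Slc25a25, stood at 25.93 and 23.71 CPM. Slc30a1, the zinc exporter of the plasma membrane, stood at 31.94 and 31.9 CPM, and Slc33a1, which carries acetyl-CoA into the endoplasmic reticulum, at 24.99 and 21.36 CPM.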

How the results depend on the processing

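No paired analysis was possible because each condition has 1 library and no result comes from a test; for the same reason no replicate could be left out. Of 80 recomputed counts (8 counts under 10 alternatives), 62 stayed within 1.5 times the reported count and 18 moved. Of 1031 recomputed ratios, 945 stayed within the counting interval of the reported ratio, whatever their sign. A further 82 left it with the same sign, and 4 left it with the other sign. These 4 were Tom+ over Tom- ratios of mesothelial cells, Slc39a8 at -0.45 and Slc16a1 at -0.023 without cells of shared barcodes, Slc39a8 at -0.052 with each cell scaled to the same total, and Slc38a1 at -0.11 without mesothelial cells holding 3 or more Pdgfra and Dpt UMIs, and the cause was not tested. The Tom+ range ratio of Slc38a1 without cells of shared barcodes had no value, with 0 UMIs on 1 side. A 5 CPM limit for members, in place of 20, gave 13 members higher and 19 lower in mesothelial cells, 10 higher and 3 lower in Tom+ stromal cells, 11 higher and 6 lower in Tom+ mesothelial cells, and 25 higher and 15 lower in Fabp4-rich cells. A 50 CPM limit gave 4 members lower in mesothelial cells, 0 higher in Tom+ stromal cells, 0 higher in Tom+ mesothelial cells, and 3 higher and 3 lower in Fabp4-rich cells. The number of members changes with the limit, and the share of all genes was not computed at 5 or 50 CPM. These counts therefore cannot be compared with those at 20 CPM. With median-of-ratios size factors, 1 member was higher and 1 lower in Tom+ stromal cells. The count of members lower in Tom+ stromal cells was 1 with mitochondrial UMIs under 5% (Slc16a1), 1 without cells of shared barcodes (Slc38a1) and 1 with stromal cells limited by Pdgfra, Dpt and Jchain (Slc38a1), a setting added with the data in view. The share of all genes was not computed under these settings or with the size factors. Slc4a4 passed 1.5-fold in Tom+ stromal cells without cells of shared barcodes, with each cell scaled to the same total and in the limited stromal cells. Depth limits Slc38a1 in stromal cells and Slc7a8 in Tom+ mesothelial cells, at 98 and 30 UMIs.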
